A study of Homo sapiens with 6 samples.

Results

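Genes of neutrophil granules and granulocytes were examined in MOLM-14 cells, a line established from a human acute myeloid leukaemia that carries an MLL-AF9 rearrangement. The cells were treated for 3 h with CA (cortistatin A at 25 nM, an inhibitor of CDK8 and CDK19, the kinases of the Mediator complex) or for 3 h with DMSO, the solvent control. Each group had 3 wells of this single line in the same serum-containing RPMI medium, and each well gave 1 Affymetrix U133 Plus 2.0 array. The genes were a list of 32 that encode granule proteins, granulocyte surface receptors and enzymes of neutrophils. The list was chosen with earlier results of these data known. Each gene was read from its brightest probe set, by the mean log2 value of the 6 arrays, which gave values for 31 of the 32 genes among 20293 probe sets that stand for 21357 genes. The expression of RNASE3, the gene of eosinophil cationic protein, was not analysed here, and only its promoter window is counted below. The labels name no separate cultures or days, so p-values measure the spread between these wells, which may be technical.

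Neutrophils fill their granules in sequence as they mature. Azurophil granules come first, with myeloperoxidase and the serine proteases; specific granules follow, with lactoferrin and other antimicrobial proteins; gelatinase granules and secretory vesicles with surface receptors come last. The transcription factors C/EBP alpha, PU.1, MYB and RUNX1 drive the azurophil genes in early precursors, and C/EBP epsilon is needed for the specific granule genes. Leukaemic cells arrested at an early stage can therefore express azurophil genes with few later ones.

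After 3 h of CA, 0 of the 31 measured genes had changed past the threshold, an adjusted p under 0.05 in limma (Benjamini-Hochberg, over all 20293 probe sets), where 0.892% of all genes passed (0.828% higher and 0.0641% lower with CA). At an unadjusted p under 0.05, 4 of the 31 were higher with CA, or 12.9%, against 7.09% of all genes, and 0 were lower, against 4.49% of all genes. These 4 were CST7, CTSG, MS4A3 and ALOX5AP. Their estimates lay between 1.10-fold and 1.25-fold. In 6 of the 31, or 19.4%, all 3 CA arrays lay above all 3 DMSO arrays, against 11.9% of all genes, and in 0 they lay below, against 7.49%. The log2 change was above 0 in 17 of the 31, or 54.8%, against 51.8% of all genes. Its median was 0.013 over the 31 genes and 0.0041 over all genes. Because the list was chosen with earlier results known, these shares are not independent evidence. RMA, by which the values were made, gives every array the same distribution of probe intensities. This would hide a shift common to the whole transcriptome.

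The intervals, each taken singly, bound the size of a change in the measured signal at these probe sets. Every one of the 31 genes had a 95% confidence interval that lay within a 1.5-fold change in either direction. For 21 genes it lay within 1.25-fold, and for 13 within 1.2-fold. Of the 31, 19 had a mean log2 value above 5.05, the median over all probe sets. Among these 19, 12 lay within 1.25-fold and 10 within 1.2-fold. The other 12 were dimmer, where RMA can compress differences, so their intervals say less about transcript levels. All 7 azurophil genes lay within 1.25-fold. The lowest bound of the 31 was 0.769-fold, for FPR1, and the highest was 1.44-fold, for MS4A3.

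CA replicate 3 was set off from the other arrays. The first principal component held 31.6% of the variance and placed it at 19.7, with the other 5 arrays between -8.21 and 1.22. Array medians lay between 5.03 and 5.08 on the log2 scale, and correlations between arrays over all genes were between 0.997 and 0.999. The count of changed genes rested on all 6 arrays. It was 181 with all of them, then 6, 9 and 110 without CA replicates 1, 2 and 3, and 0, 8 and 1 without DMSO replicates 1, 2 and 3 (limma, with 1609 genes at an unadjusted p under 0.05 where the count was 0). The count among the granule and granulocyte genes was 0 in each of these 6 fits, with 3 to 6 genes at an unadjusted p under 0.05. MOLM-14 is a myeloid line, and its lysozyme gene LYZ was bright, at a mean log2 value of 12.29 with CA and 12.46 with DMSO. Markers of other tissues were not uniformly dim: 6 of 11 lymphoid and 6 of 12 epithelial and fibroblast markers had a mean above 5.05, the median over all probe sets, which is a mark of dimness and not a test for presence. The B cell factor PAX5 was at a mean of 9.59 with CA and 9.54 with DMSO, and the keratin gene KRT18 at 9.25 with CA and 9.27 with DMSO. The T cell marker CD3E was at 5.03 in both groups, and the epithelial marker EPCAM was at 2.66 with CA and 2.60 with DMSO.

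**Figure D1:**
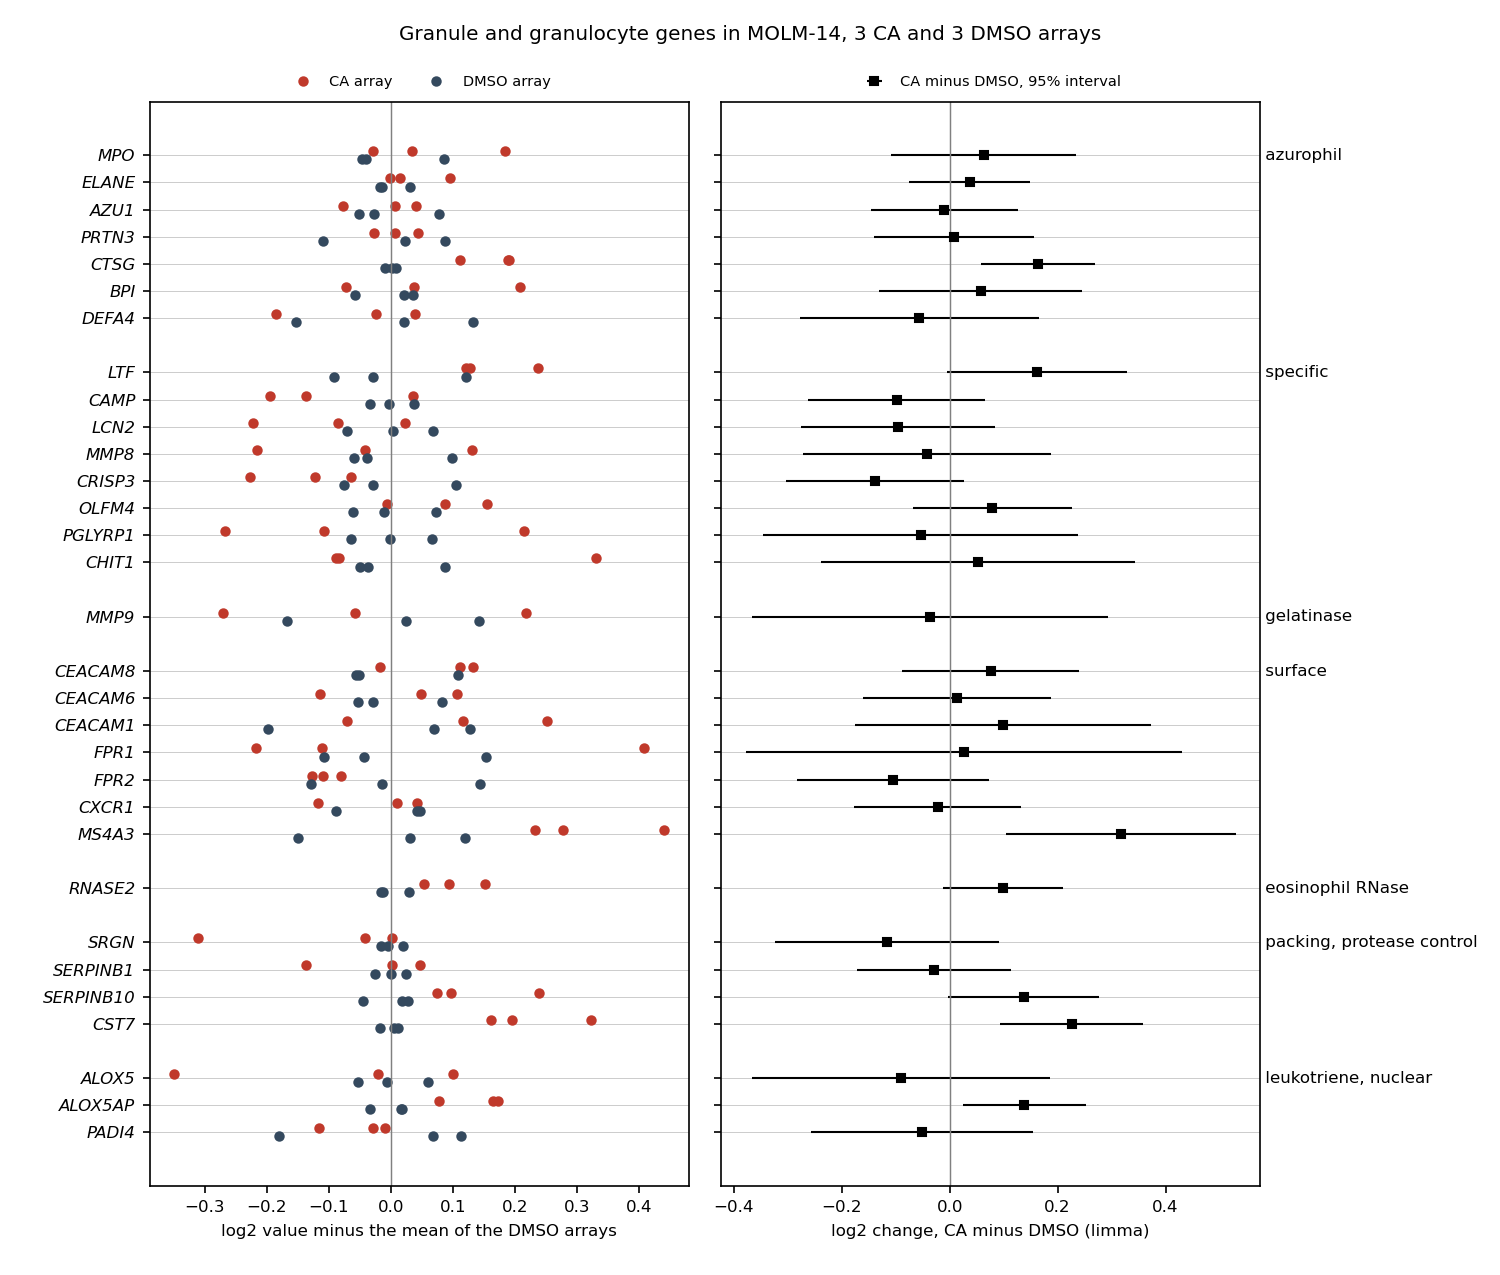
Left, log2 value of each gene on each array minus the mean of its 3 DMSO arrays, with CA arrays in red just above DMSO arrays in dark blue. Right, the log2 change of CA minus DMSO from limma with its 95% confidence interval, with genes grouped by class. The red points of CTSG, MS4A3, RNASE2, SERPINB10, CST7 and ALOX5AP all lie to the right of their blue points, and no interval reaches past 0.53 or below -0.38.

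Promoter windows were matched by symbol for 22 of the 32 genes in a RefSeq table of build GRCh38.p14. Each window runs from 250 bases before to 50 bases from the gene's start. The 120 bases before the start are shown for CTSG and MS4A3, whose CA and DMSO arrays did not overlap, and for AZU1 and PRTN3, protease family genes of the same granule whose arrays did overlap. Capitals mark matches on either strand to short motifs of the 4 factors named above, namely GAGGAA for PU.1, TTNNGNAA for C/EBP, AACGG for MYB and TGTGGT for RUNX. The CTSG stretch is chr14:24576251-24576370 on the minus strand, the MS4A3 stretch is chr11:60056545-60056664 on the plus strand, the AZU1 stretch is chr19:827717-827836 on the plus strand and the PRTN3 stretch is chr19:840879-840998 on the plus strand.
CTSG: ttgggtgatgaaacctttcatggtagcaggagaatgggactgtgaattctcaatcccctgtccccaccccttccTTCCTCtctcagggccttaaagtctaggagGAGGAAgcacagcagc
MS4A3: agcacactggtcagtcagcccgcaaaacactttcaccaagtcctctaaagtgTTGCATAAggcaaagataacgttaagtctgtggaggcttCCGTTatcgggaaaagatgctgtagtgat
AZU1: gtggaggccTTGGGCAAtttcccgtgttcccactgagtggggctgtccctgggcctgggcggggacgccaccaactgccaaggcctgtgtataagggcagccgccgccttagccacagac
PRTN3: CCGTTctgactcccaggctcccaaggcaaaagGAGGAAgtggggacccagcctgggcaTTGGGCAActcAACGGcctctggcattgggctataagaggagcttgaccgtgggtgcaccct
The CTSG stretch held the PU.1 letters at 2 places, and the MS4A3 stretch held C/EBP and MYB letters. AZU1 held C/EBP letters, and PRTN3 held letters of PU.1, C/EBP and MYB. AZU1 and PRTN3 carry the same 8 letters for C/EBP, at positions -111 to -104 in AZU1 and -62 to -55 in PRTN3, counted back from the start.

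Over the whole windows, the C/EBP letters were in 15 of the 22 genes, or 68.2%, against 37.2% of 27305 windows of the same length in the table. The PU.1 letters were in 12 of the 22, or 54.5%, against 27.6% of all windows. The MYB letters were in 5, or 22.7%, against 19.9%, and the RUNX letters were in 4, or 18.2%, against 13.1%. Such matches describe the letters of the window and are not measured binding sites. The windows compared were not matched for base composition, and neighbouring genes such as RNASE2 and RNASE3 were counted separately. Genes with and without a change at an unadjusted p under 0.05 both held them: ALOX5AP had PU.1 letters, and so did LTF and CAMP.

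Among the azurophil granule genes, 6 of 7 had a mean above 5.05. CTSG encodes cathepsin G, a serine protease that kills microbes and cuts matrix proteins. Its log2 values were 13.04, 12.96 and 13.04 on the CA arrays, against 12.86, 12.84 and 12.85 on the DMSO arrays. Every CA array lay above every DMSO array, and the DMSO arrays lay close together. The change was 1.12-fold (95% confidence interval 1.04 to 1.21, adjusted p = 0.230, limma). The log2 change lay between 0.15 and 0.19 under 15 alternatives, at an unadjusted p under 0.05 in all 15. These alternatives reuse the same arrays and the only CTSG probe set, and several cannot move the estimate. They are therefore not independent checks. CTSG passed in 1 of the 15, a limma fit with an intensity trend and robust variances (adjusted p = 0.00270), where 2.79% of all genes passed.

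ELANE, the gene of neutrophil elastase, encodes a protease of the same family. Its log2 values were 12.56, 12.57 and 12.65 with CA, against 12.59, 12.54 and 12.54 with DMSO. The groups overlapped, and the change was 1.03-fold (0.949 to 1.11, adjusted p = 0.805). AZU1 and PRTN3 lie beside ELANE on chromosome 19, in the order AZU1, PRTN3, ELANE in the RefSeq table. AZU1, which encodes azurocidin, a protease relative without catalytic activity, averaged 10.15 ± 0.06 with CA and 10.16 ± 0.07 with DMSO (SD, n = 3 each), a ratio of 0.993 (0.903 to 1.09). PRTN3, which encodes proteinase 3, averaged 7.61 ± 0.03 with CA and 7.61 ± 0.10 with DMSO, a ratio of 1.01 (0.907 to 1.11). These neighbours had groups that overlapped on the arrays, and their intervals contain no change.

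MPO encodes myeloperoxidase, which makes hypochlorous acid from hydrogen peroxide. Log2 values of MPO were 6.50, 6.29 and 6.35 with CA, against 6.40, 6.28 and 6.27 with DMSO. The groups overlapped at a change of 1.04-fold (0.927 to 1.18, adjusted p = 0.778), and the other MPO probe set gave a log2 change of 0.10. BPI, the bactericidal protein that binds lipopolysaccharide, was read from a probe set that also lists LOC149684, with a log2 change of 0.06. DEFA4, a defensin gene, had a mean log2 value of 4.19 with CA and 4.25 with DMSO, below the array medians. As a class the 7 azurophil genes had a median log2 change of 0.037, with 5 estimates above 0 and 2 below.

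**Figure D2:**
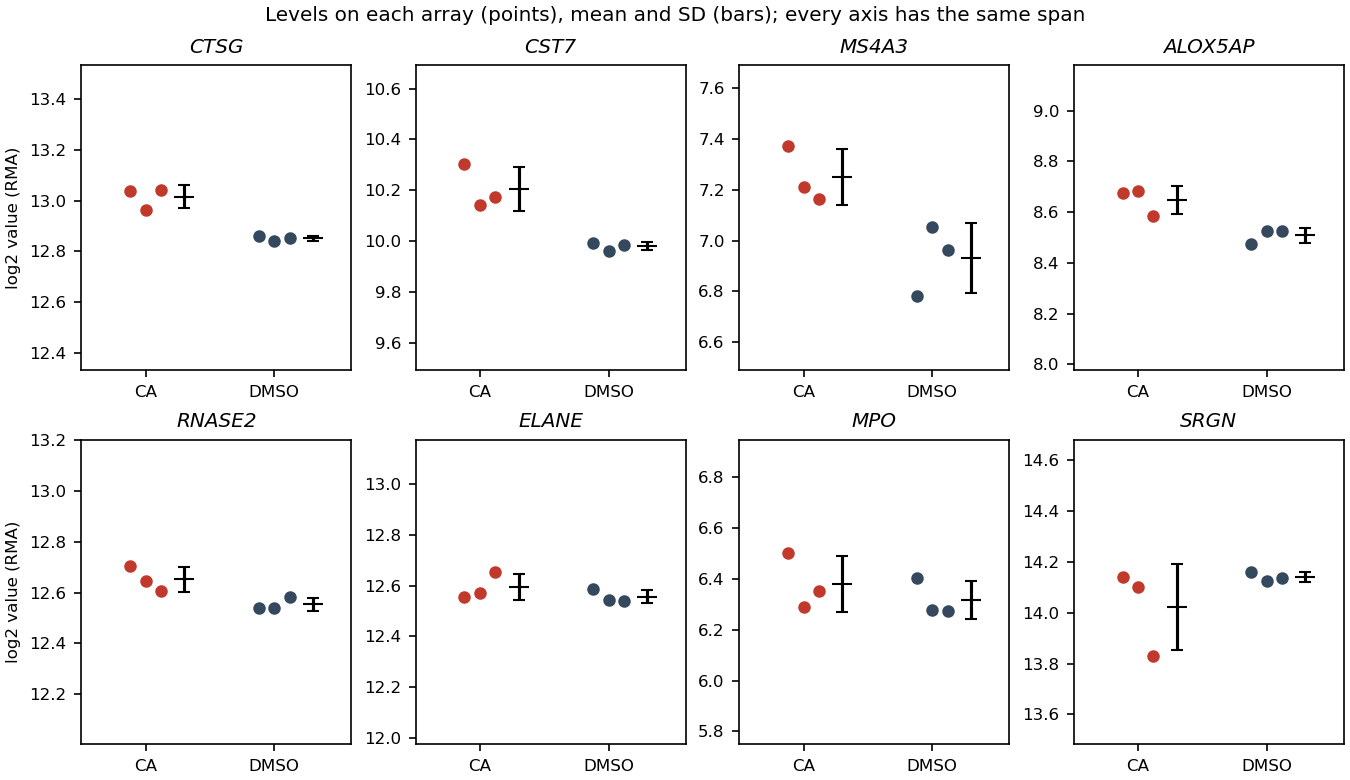
RMA log2 values of 8 genes on each array, CA in red on the left and DMSO in dark blue on the right of each panel, with mean and SD in black. CTSG, CST7, MS4A3, ALOX5AP and RNASE2 have no CA point at or below a DMSO point, ELANE, MPO and SRGN overlap, and the low CA point of SRGN is replicate 3 at 13.83.

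Specific granule genes were mostly dim. Of 8 measured, CAMP and PGLYRP1 had a mean above 5.05, and at lower levels RMA differences can be compressed. LTF encodes lactoferrin, which binds iron. LTF had log2 values of 4.92, 4.80 and 4.81 with CA, against 4.80, 4.59 and 4.65 with DMSO. The lowest CA array and the highest DMSO array met near 4.80, and the change was 1.12-fold (0.996 to 1.26, adjusted p = 0.444).

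CAMP encodes the cathelicidin antimicrobial peptide. On the 6 arrays CAMP had log2 values of 5.93, 5.76 and 5.70 with CA, against 5.93, 5.89 and 5.86 with DMSO, an overlap through CA replicate 1. The log2 change was -0.10 (-0.26 to 0.07, adjusted p = 0.636). CRISP3, a cysteine-rich secretory protein gene, had log2 values of 2.22, 2.33 and 2.39 with CA, against 2.37, 2.42 and 2.56 with DMSO. CA replicate 3 reached the DMSO range, and the log2 change was -0.14 (-0.30 to 0.03, adjusted p = 0.505), the lowest of the 31.

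The other specific granule genes overlapped between the groups. LCN2, whose protein binds bacterial siderophores, had a log2 change of -0.10, and MMP8, the neutrophil collagenase, had one of -0.042. OLFM4, a secreted glycoprotein of a subset of neutrophils, had one of 0.08. PGLYRP1, which binds bacterial peptidoglycan, had one of -0.054, and CHIT1, a chitinase, had one of 0.05. Over the 8 genes the median was -0.048, with 3 estimates above 0 and 5 below. Arrays did not overlap in 0 of the 8, against 19.4% of all genes in either direction. MMP9, which encodes gelatinase B, was the gelatinase granule gene. MMP9 had log2 values of 5.45, 5.67 and 5.94 with CA, against 5.75, 5.56 and 5.87 with DMSO. The CA arrays spanned the DMSO arrays, and the change was 0.975-fold (0.775 to 1.23, adjusted p = 0.943). Over the 16 azurophil, specific and gelatinase genes together, the median log2 change was -0.0014, with 8 estimates above 0 and 8 below.

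Among the surface genes, MS4A3 had the largest estimate of the 31 genes. It encodes a membrane protein of granulocyte and monocyte precursors. MS4A3 stood at log2 values of 7.37, 7.21 and 7.16 with CA, against 6.78, 7.05 and 6.96 with DMSO, with every CA array above every DMSO array. The change was 1.25-fold (1.07 to 1.44, adjusted p = 0.252), with a log2 change of 0.24 without DMSO replicate 1, the lowest array. The other MS4A3 probe set, at mean log2 values of 5.45 with CA and 5.38 with DMSO, gave a log2 change of 0.07 with overlapping groups. The mean of both probe sets gave 0.19, past neither the adjusted threshold nor an unadjusted p under 0.05.

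CEACAM8, CEACAM6 and CEACAM1 encode related adhesion proteins, the first of them a membrane marker of specific granules. CEACAM8 had log2 values of 2.82, 2.84 and 2.70 with CA, against 2.82, 2.66 and 2.66 with DMSO. These dim values overlapped, with a log2 change of 0.08 (-0.088 to 0.24, adjusted p = 0.714). CEACAM6 had a log2 change of 0.013 and CEACAM1 one of 0.10. The 5 probe sets of CEACAM1 gave log2 changes from -0.17 to 0.17, and the one at -0.17 had all CA arrays below all DMSO arrays (adjusted p = 0.594 over all 54613 probe sets). Close sequence among the CEACAM genes can let their probe sets share signal.

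FPR1 and FPR2, neighbours on chromosome 19, encode receptors for formylated bacterial peptides. FPR2 had log2 values of 4.54, 4.58 and 4.55 with CA, against 4.65, 4.54 and 4.81 with DMSO. DMSO replicate 2 lay just below the lowest CA array and the other DMSO arrays lay above all CA arrays, and the log2 change was -0.11 (-0.28 to 0.07, adjusted p = 0.639). FPR1 had the widest interval of the 31, with a log2 change of 0.03 (-0.38 to 0.43), and its highest array was CA replicate 3 at 5.83. CXCR1, a receptor for interleukin-8, had a log2 change of -0.022. The 7 surface genes had a median log2 change of 0.03, with 5 estimates above 0.

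RNASE2 encodes the eosinophil-derived neurotoxin, a ribonuclease. RNASE2 had log2 values of 12.70, 12.65 and 12.61 with CA, against 12.54, 12.54 and 12.58 with DMSO. The groups did not overlap, with CA replicate 3 and DMSO replicate 3 the closest pair. The change was 1.07-fold (0.992 to 1.16, adjusted p = 0.478). RNASE2 and RNASE3 are neighbours on chromosome 14 and close in sequence.

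Genes for granule packing and protease control gave the smallest p-value of the list. CST7 encodes cystatin F, an inhibitor of lysosomal cysteine proteases, among them the cathepsin that activates granule serine proteases. CST7 had log2 values of 10.30, 10.14 and 10.17 with CA, against 9.99, 9.96 and 9.98 with DMSO. The lowest CA array was above the highest DMSO array, and the change was 1.17-fold (1.07 to 1.28, adjusted p = 0.185). Under 15 alternatives the log2 change lay between 0.18 and 0.26, at an unadjusted p under 0.05 in all 15. As for CTSG, these reuse the same arrays and the only probe set of the gene, and are not independent checks. CST7 passed in the fit with an intensity trend and robust variances (adjusted p = 0.0147), where CTSG was the other of the 2 granule and granulocyte genes that passed.

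SERPINB10, a serpin gene of myeloid cells, had log2 values of 2.93, 3.09 and 2.95 with CA, against 2.87, 2.81 and 2.88 with DMSO. The groups did not overlap, at a signal well below the array medians, and the change was 1.10-fold (0.997 to 1.21, adjusted p = 0.443). SERPINB1 encodes an inhibitor of elastase, cathepsin G and proteinase 3. At the probe set used its log2 change was -0.029 (-0.17 to 0.11). Its other 3 probe sets gave -0.027, 0.00024 and 0.09.

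SRGN encodes serglycin, the proteoglycan on which granule proteases are stored. SRGN stood at log2 values of 14.14, 14.10 and 13.83 with CA, against 14.16, 14.13 and 14.14 with DMSO. CA replicate 3 was the low array, and the log2 change was -0.12 (-0.32 to 0.09, adjusted p = 0.655). Without CA replicate 3 it was -0.020. The other SRGN probe sets had the opposite sign, with log2 changes of 0.09 and 0.28, and in both of them all CA arrays lay above all DMSO arrays. The one at 0.28 was at 6.76, 6.67 and 6.43 with CA, against 6.28, 6.33 and 6.40 with DMSO (adjusted p = 0.473 over all 54613 probe sets). The highest value in the whole table was 14.75, so the 2 bright SRGN probe sets were near the top of the scale.

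**Figure D3:**
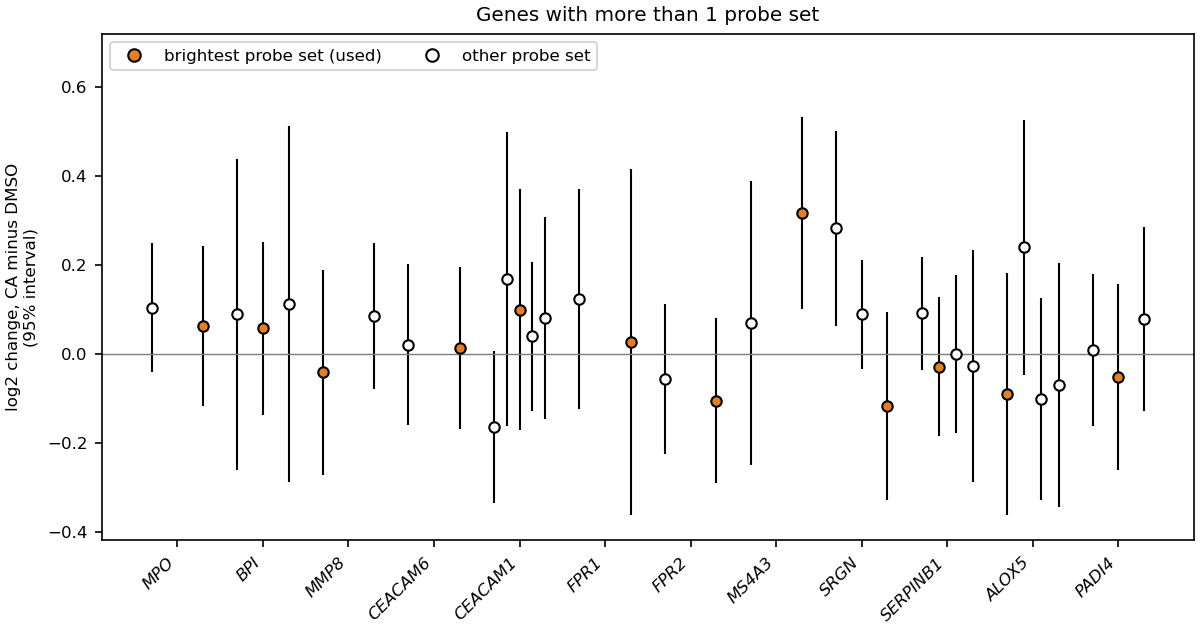
Log2 change of CA minus DMSO with its 95% confidence interval at every probe set of the 12 genes with more than 1, from a fit of all 54613 probe sets. Filled points are the brightest probe sets, which were used, and open points are the others. In 6 genes, SRGN and CEACAM1 among them, the estimates lie on both sides of 0.

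Of the 31 genes, 12 had more than 1 probe set, and in 6 of these the probe sets had log2 changes of both signs. Over the 53 probe sets of these genes, 0 passed at an adjusted p under 0.05 in limma over all 54613 probe sets, where 0.220% of all probe sets did. At an unadjusted p under 0.05 there were 5 of the 53, against 4705 of the 54613.

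ALOX5AP and ALOX5 work together in leukotriene synthesis, the first as the membrane protein that presents arachidonic acid to the enzyme encoded by the second. ALOX5AP had log2 values of 8.67, 8.68 and 8.59 with CA, against 8.48, 8.53 and 8.52 with DMSO. All CA arrays were above all DMSO arrays, and the change was 1.10-fold (1.02 to 1.19, adjusted p = 0.347). ALOX5 was dim, at 4.63, 4.75 and 4.30 with CA, against 4.60, 4.71 and 4.65 with DMSO. CA replicate 3 was its low array, the log2 change was -0.090 (-0.37 to 0.19), and without that array it was 0.04. PADI4 encodes the enzyme that converts histone arginines to citrulline when neutrophils release chromatin. PADI4 had log2 values of 5.17, 5.06 and 5.14 with CA, against 5.24, 4.99 and 5.29 with DMSO, an overlap at a log2 change of -0.051 (adjusted p = 0.858).

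Of the 31 genes, 19 had a mean above 5.05, and these held all 4 genes at an unadjusted p under 0.05, where 8.89% of all genes above that mark were higher at that p. They also held 5 of the 6 genes whose CA arrays lay above their DMSO arrays, where 16.1% of all genes above the mark did. The median log2 change was 0.03 in these 19 genes and -0.014 in the 12 dimmer ones.

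**Figure D4:**
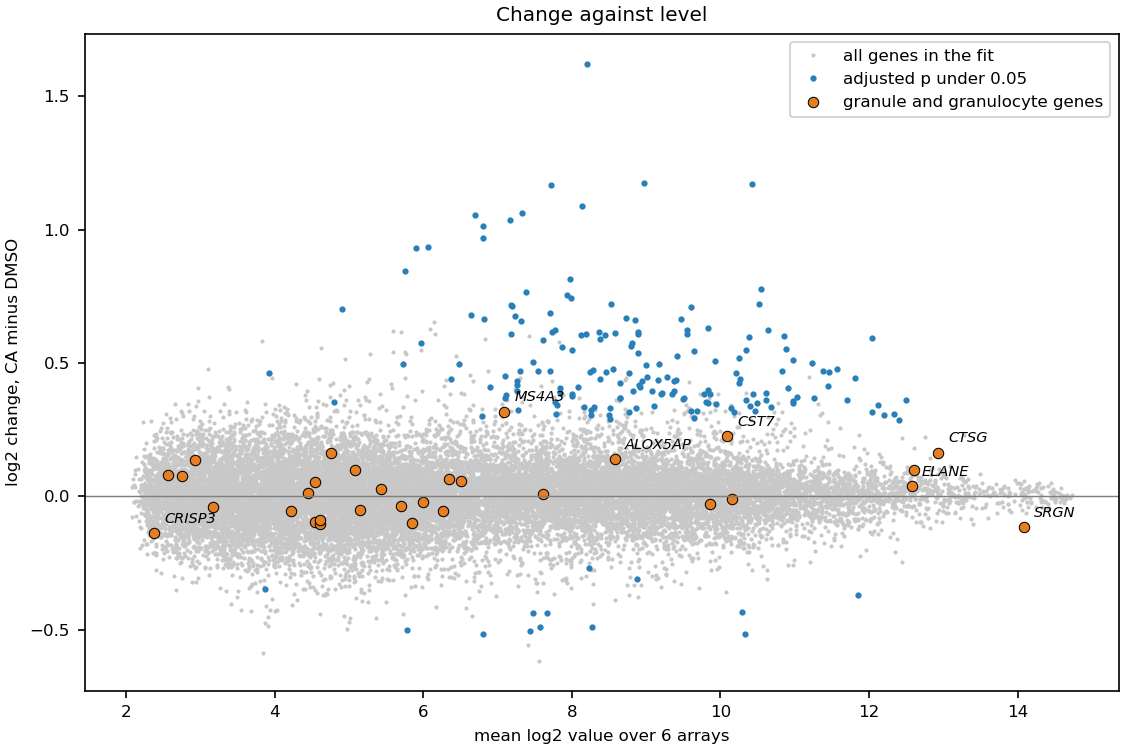
Log2 change of CA minus DMSO against the mean log2 value over 6 arrays, for all 20293 probe sets in grey, the 181 past the threshold in blue and the granule and granulocyte genes in orange. The orange points lie within the grey cloud between -0.14 and 0.32, with MS4A3, CST7 and CTSG in its upper part and SRGN, at the far right, in its lower part.

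Genes that act around the granule proteins were read from lists chosen with earlier results of these data known. Of 16 transcription factors of granulocyte formation, 5 rose and 0 fell (limma, adjusted over all genes), with a median log2 change of 0.14, where 0.828% of all genes rose and 0.0641% fell with a median of 0.0041. The choice of this list with results in view means that its count is not independent evidence. CEBPA, which encodes C/EBP alpha, was at 11.84, 11.75 and 11.83 with CA, against 11.37, 11.34 and 11.28 with DMSO, a rise of 1.39-fold (adjusted p = 0.0174). MYB rose 1.29-fold (adjusted p = 0.0245), IRF8 rose 1.51-fold (adjusted p = 0.00904) and ETV6 rose 1.30-fold (adjusted p = 0.0308). CEBPD, the fifth, was singled out once its values were known, and rose 1.27-fold (adjusted p = 0.0336). A different CEBPD probe set, read when _x_at, _s_at and _a_at probe sets were left out, gave a log2 change of 0.14 (adjusted p = 0.769). CEBPE, the factor of specific granules, was dim and had a log2 change of -0.14 (adjusted p = 0.448), and SPI1, which encodes PU.1, had one of -0.12 (adjusted p = 0.505).

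Proteins that move granules to the cell surface included 1 gene that rose. RAB27A encodes a small GTPase that docks azurophil granules. RAB27A stood at log2 values of 11.56, 11.66 and 11.62 with CA, against 11.15, 11.18 and 11.11 with DMSO. All CA arrays were above all DMSO arrays, and RAB27A rose 1.38-fold (1.28 to 1.50, adjusted p = 0.0158). It was 1 of 12 measured exocytosis genes that rose, and 0 fell, with a median log2 change of 0.013, against 0.828% higher and 0.0641% lower over all genes.

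Among 14 other surface genes of granulocytes, FUT4, the fucosyltransferase that makes the CD15 antigen, rose 1.51-fold (adjusted p = 0.0106) and 0 fell. Over all genes 0.828% rose and 0.0641% fell. At an unadjusted p under 0.05 in limma, 3 of the 14 were higher and 1 was lower, against 7.09% and 4.49% of all genes. Of the NADPH oxidase genes 0 of 5 passed in limma, and RAC2, a GTPase of the oxidase, had the smallest p, with a log2 change of 0.11 (adjusted p = 0.431). Of 20 lysosomal and protease processing genes 0 passed, and CTSD, the cathepsin D gene, had the smallest p, with a log2 change of -0.16 (adjusted p = 0.360). At an unadjusted p under 0.05, the oxidase list had 1 gene higher and 0 lower, and the lysosomal list had 0 higher with 1 lower, where 7.09% of all genes were higher and 4.49% lower.

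The other leukotriene genes gave 0 of 11 past the threshold and 1 higher at an unadjusted p under 0.05, against 7.09% of all genes. This was CYSLTR1, a receptor for cysteinyl leukotrienes, at 9.20, 9.17 and 9.21 with CA, against 8.87, 8.96 and 8.98 with DMSO. The groups did not overlap, and the change was 1.20-fold (1.10 to 1.30, adjusted p = 0.0936). Of the other 3 measured PADI genes 0 passed and 0 had an unadjusted p under 0.05, against 0.892% and 11.6% of all genes. PADI1 had the smallest p, with a log2 change of -0.12 (limma, adjusted p = 0.557).

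The 7 genes of these lists that passed did so on all arrays together. When 1 array was left out at a time, RAB27A, IRF8, ETV6 and FUT4 passed in the fit without CA replicate 3 and in 0 of the other 5, while CEBPA, MYB and CEBPD passed in 0 of the 6. Over these 6 fits the adjusted p lay between 0.0454 and 0.123 for RAB27A, 0.0319 and 0.0760 for IRF8, 0.0503 and 0.118 for CEBPA, and 0.0539 and 0.147 for MYB. It lay between 0.0459 and 0.179 for ETV6, 0.0668 and 0.184 for CEBPD, and 0.0358 and 0.0911 for FUT4. The log2 changes moved little in the same fits, from 0.44 to 0.50 for RAB27A and 0.45 to 0.51 for CEBPA.

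**Figure D5:**
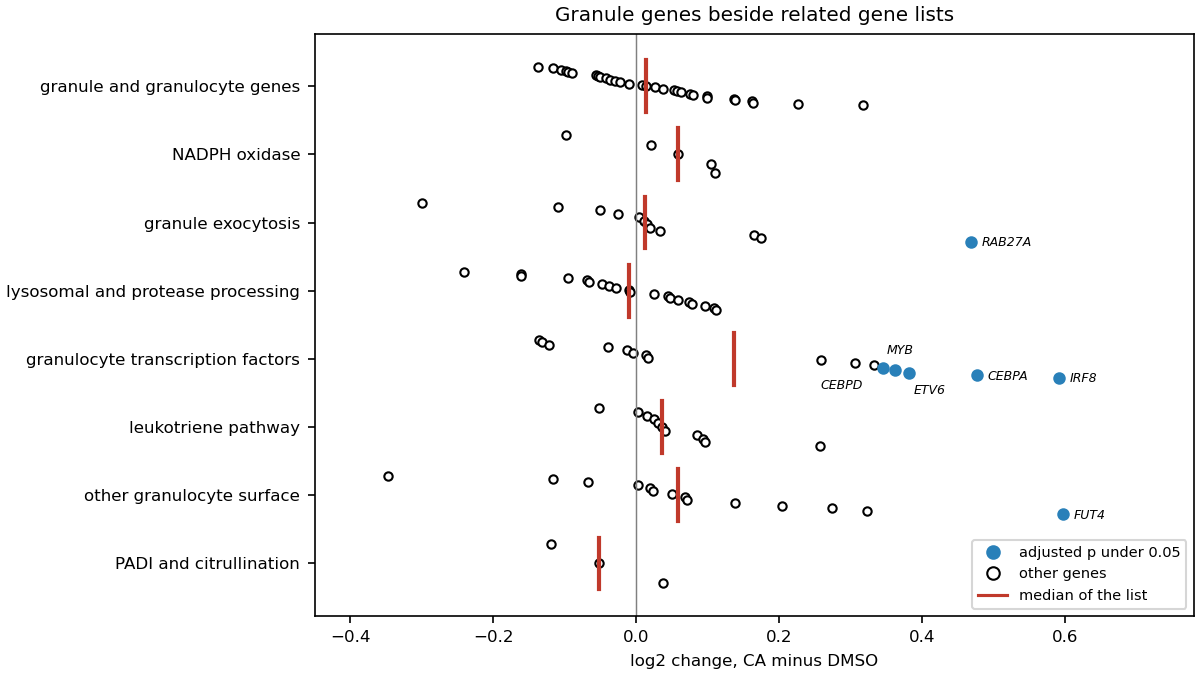
Log2 change of CA minus DMSO for the granule and granulocyte genes in the top row and for 7 related gene lists in the rows under it, each point a gene and each red line the median of a list. Filled blue points have an adjusted p under 0.05: RAB27A, CEBPD, MYB, ETV6, CEBPA, IRF8 and FUT4, with none in the top row.

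Lists of cell type markers were set beside these values. Whether the monocyte and macrophage list can tell monocytes from granulocytes was not tested. Of 12 measured monocyte and macrophage markers 0 passed in limma, where 0.892% of all genes did. S100A8 and S100A9 were higher at an unadjusted p under 0.05, where 7.09% of all genes were. S100A8 was higher by 0.25 on the log2 scale (limma, adjusted p = 0.107) and S100A9 by 0.22 (adjusted p = 0.294). The list had 7 log2 changes above 0 and 5 below. The summed linear signal of these 12 genes was 2618 to 2830 on the CA arrays and 2277 to 2356 on the DMSO arrays. Most of it came from S100A8 and S100A9: the other 10 genes summed to 234.6 to 250 on the CA arrays and 221.5 to 249.2 on the DMSO arrays, ranges that overlap (a sum chosen after the data were seen). Of the erythroid and megakaryocyte markers 0 of 11 passed, of the lymphoid markers 0 of 11 and of the epithelial and fibroblast markers 0 of 12, with 1, 2 and 0 at an unadjusted p under 0.05, where 11.6% of all genes were. Their sums overlapped between the groups, at 681 to 752 with CA and 675 to 715 with DMSO for the erythroid list, 1252 to 1325 with CA and 1233 to 1256 with DMSO for the lymphoid list, and 989 to 1059 with CA and 1029 to 1067 with DMSO for the epithelial list. CD14 was dim, at mean log2 values of 4.02 with CA and 3.80 with DMSO. The part of these markers in the higher values of CST7, CTSG, MS4A3 and ALOX5AP was not tested. In RNA from whole wells, fewer cells with a transcript and less transcript per cell cannot be told apart.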

How the data were processed

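RNA of 3 CA and 3 DMSO samples was hybridised to 1 array each; the labels name more than 1 RNA isolation reagent without saying which sample had which. The authors deposited log2 values for probe sets, which the submitters' processing notes credit to RMA and affy; their versions were not given in the sources used here. In general RMA subtracts background, gives all arrays the same quantiles and sums up probes, which can compress differences of dim genes. The deposited values were used as they are. Of 54675 probe sets, 62 controls were dropped. The platform annotation gives 1 gene symbol to 41091 of the remaining 54613, several to 1801 and none to 11721. For every listed gene the brightest probe set was used, also where it lists several genes, and each probe set entered the fit once.

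The comparison of CA against DMSO used limma 3.58.1 under R 4.3.3, two-sided, with lmFit and eBayes and neither trend nor block. It ran over 20293 probe sets with Benjamini-Hochberg adjustment and a threshold of 0.05. Every p and 95% confidence interval comes from this fit unless another is named. An exact permutation test of 3 against 3 arrays cannot go below 0.1. The fit was also run on data simulated from its own fitted spread, which checks the procedure and not its behaviour on these arrays. All 31 measured genes matched their symbol by gene number in the RefSeq table.

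The members and lists were chosen with earlier results of these data known. Array values are given for genes at an unadjusted p under 0.05 and the 3 with the smallest p in each class. In each other list, up to 4 past the threshold or the 1 with the smallest p are named, and others were named after their values were seen. Alternatives were a replicate block, each array left out, an intensity trend with robust variances, array weights, a filter on dim probe sets, other probe set choices, median centring and a threshold of 0.01. The number of arrays limits the precision.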

Additional observations from a re-analysis of the deposited data

How the results depend on the processing

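The count of 0 granule and granulocyte genes past the threshold held under every alternative but the intensity trend with robust variances, which gave 2, CTSG and CST7. The count over all genes was 181 and moved more, to 567 with that trend, 361 without dim probe sets, 120 over all probe sets, 70 without _x_at, _s_at and _a_at probe sets and 25 at an adjusted p under 0.01. Leaving out 1 array at a time gave 0 to 110. With the replicate number as a block it was 6, and 0 for the granule and granulocyte genes, and the 7 called genes of the related lists had adjusted p-values between 0.0636 and 0.147, so none of them passed. At an unadjusted p under 0.05 in limma, the block fit had 6 of the 31 genes, 5 of them higher. Over all genes it had 2857 of 20293, with 1596 higher. The labels do not state a pairing. Deviations of same-numbered arrays correlated at 0.0406, 0.224 and 0.250, and those of other pairs between -0.259 and 0.0923. CA replicates 2 and 3 correlated best with the DMSO array of their own number, and CA replicate 1 with DMSO replicate 2. A shared origin of same-numbered arrays was not tested, and the block was kept as an alternative. Of the 31 genes, 15 kept the sign of their log2 change under all alternatives that gave a value and 16 did not. CTSG, CST7, MS4A3 and ALOX5AP were among the 15. In each of them every CA array lay above every DMSO array, so leaving out 1 array could not change the sign. Several other alternatives return the same log2 change by construction.

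The azurophil median of 0.037 lay between 0.0084 and 0.043 when 1 array was left out, lowest without CA replicate 3. The packing and protease control median of 0.054 was -0.029 without dim probe sets, 0.11 without _x_at, _s_at and _a_at probe sets and 0.11 with the mean of probe sets, each of which changes the genes or probe sets read. The leukotriene and PADI4 median of -0.051 was 0.044, 0.11 and 0.012 under the same choices, and between -0.072 and 0.039 when 1 array was left out. The cause was not tested. The medians of the other classes moved by less than 1 SD between arrays, but 3 of them changed sign when 1 array was left out, with ranges of -0.083 to 0.011 for the specific genes, -0.16 to 0.08 for the gelatinase gene and -0.033 to 0.058 for the surface genes, and the surface median was also below 0 with array weights. Dim signal limits most specific granule genes, of which 6 of 8 lay under the median of all probe sets.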

Other observations

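Values of several related genes, each chosen after its values were seen, differed in direction without passing the threshold in limma. CXCR2, which encodes the other neutrophil receptor for interleukin-8, had log2 values of 4.70, 4.49 and 4.43 with CA, against 4.76, 4.99 and 4.90 with DMSO, all CA arrays being below all DMSO arrays. Its log2 change was -0.35 (adjusted p = 0.230), at a signal below the array medians, while CXCR1 had one of -0.022. STX11, a syntaxin of cytotoxic granule release, had log2 values of 6.07, 6.25 and 5.99 with CA, against 6.41, 6.51 and 6.29 with DMSO, and a log2 change of -0.30 (adjusted p = 0.271). RAB3D, a GTPase of secretory granules, had log2 values of 8.21, 8.26 and 8.22 with CA, against 8.09, 8.04 and 8.06 with DMSO, and a log2 change of 0.16 (adjusted p = 0.201). MME, which encodes the surface peptidase CD10, had a log2 change of 0.32 (adjusted p = 0.311) with groups that did not overlap.

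Markers of eosinophils, basophils and mast cells gave 0 of 10 past the threshold and 0 at an unadjusted p under 0.05 in limma. Over all genes these shares were 0.892% and 11.6%. The median log2 change of the markers was -0.0028. EPX, the eosinophil peroxidase gene, had mean log2 values below the array medians in both groups and a log2 change of -0.091 (adjusted p = 0.696), beside the bright RNASE2.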
